A study of Mus musculus with 27 samples.

Results

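The genes described here encode 32 subunits of the receptors for glutamate, GABA and glycine, taken by their symbols from the 40129 genes of a bulk RNA-seq table of mouse retina. The list was made with earlier results of these data known. The 32 genes comprised 9 GABA-A receptor subunits, 4 glycine receptor subunits, 4 AMPA, 4 NMDA and 5 kainate receptor subunits, and 6 metabotropic glutamate receptors. The retinas came from wild-type C57BL/6 mice (C57BL/6J in the study's methods) in oxygen-induced retinopathy (OIR). In this model newborn pups are kept in hyperoxia, lose central retinal vessels, and are then returned to room air. Retinas were taken at postnatal day 14 (p14), when the central retina is avascular and hypoxic, or at postnatal day 17 (p17), when retinal neovascularization is at its height, and age-matched pups kept in room air throughout (nOIR) served as controls. At p14 the comparisons used 6 control and 6 OIR mice, and at p17 they used 6 control and 8 OIR mice, each mouse being 1 sample of whole retina from one or both eyes. A further nOIR p14 mouse was left out, as in the study, which judged it an outlier contaminated by lens genes. Its values are given separately at the end. In the study each group came from fewer litters than mice. The labels do not say which mice shared a litter, so p-values measure the spread between these mice and take litter mates as independent.

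Photoreceptors and bipolar cells signal with glutamate, whereas amacrine and horizontal cells use mainly GABA and glycine. AMPA, NMDA and kainate receptors are cation channels opened by glutamate, and GABA-A and glycine receptors are chloride channels built from rings of related subunits. Metabotropic glutamate receptors act through G proteins and often sit on the terminals that release the transmitter.

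Between 17029536 and 33593428 reads were assigned to genes per mouse, with a median of 30024568, and all 32 genes passed the filter of a mean of at least 1 normalized read that left 27137 genes for testing. Normalized reads are gene counts divided by 1 size factor per mouse. Fold changes are given as log2FC ± SE on the log2(normalized reads + 1) scale, and a gene was called at a Benjamini-Hochberg adjusted p under 0.05 over all genes tested. The libraries came from rod-rich tissue, as the label retina implies: the 8 rod markers together reached 946684 normalized reads or more in every mouse, and no listed marker of a retinal cell class was at 0 throughout a group. In 7 of the 26 mice, Xkr4, which encodes a membrane protein of the XK family, was under 150 normalized reads, and the counts of the 32 genes called at p14, at p17 and between the OIR ages are therefore also given without these mice.

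Every receptor subunit gene called between OIR and control retinas at either age was lower in OIR. At p14, 15 of the 32 genes were lower and 0 were higher in OIR, against 2.91% of all genes tested that were lower and 3.18% that were higher. At p17, 22 of the 32 were lower and 0 were higher, against 5.12% and 7.39% of all genes tested. Because the list was made with earlier results of these data known, these counts are not an independent test of an excess over all genes. The median log2FC of the 32 genes was -0.42 at p14 and -0.52 at p17, whereas the median over all genes tested was 0.017 and -0.023. Estimates were below 0 for 27 genes at p14 and 29 at p17. In bulk tissue, fewer cells of a type and less RNA per cell cannot be told apart. No subunit reached the log2FC of -2 that the study required of a downregulated gene, a limit that 0.140% of genes passed at p14 and 0.173% at p17. At an unadjusted p under 0.05, 0 genes were higher at p14 and 1 at p17, which was Grik4. The edgeR test on whole reads also called 0 genes higher at either age, and DESeq2 called 0 at p14 and 1, Grik4, at p17.

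**Figure D1:**
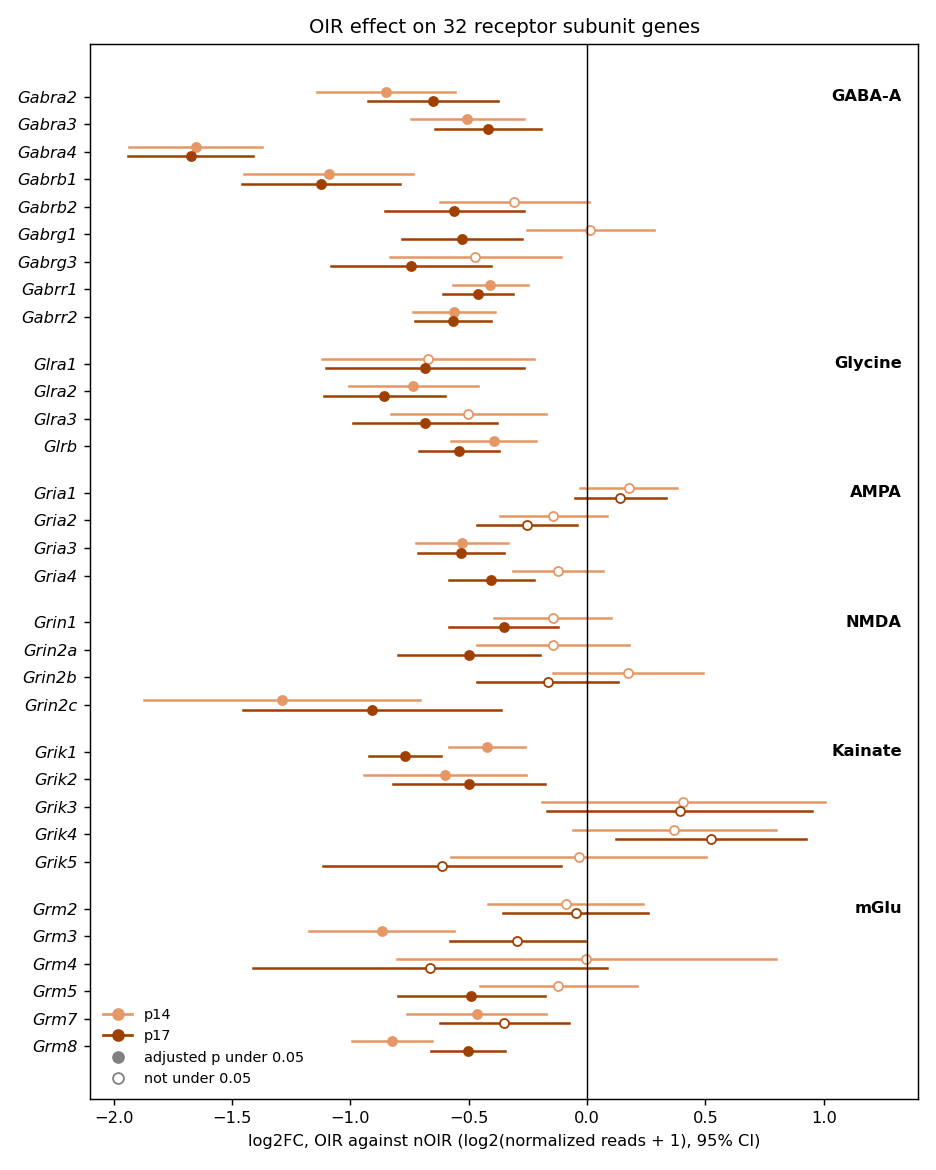
log2FC of OIR against nOIR (x axis, log2(normalized reads + 1) scale, with 95% confidence intervals) for 32 receptor subunit genes (y axis, grouped by receptor class) at p14 (light) and p17 (dark), filled where the adjusted p was under 0.05. All 9 GABA-A and all 4 glycine receptor subunits are filled on the lower side at p17, Gabra4 lies farthest to the left at both ages, and no point to the right of 0 is filled.

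Separation between mice followed the same direction. All OIR mice lay below all nOIR mice in 11 of the 32 genes at p14 (background over all genes tested, 1.86%) and in 12 at p17 (1.98%), and in 0 genes did all OIR mice lie above, which 1.91% and 3.90% of all genes did. The 11 at p14 were Gabra2, Gabra4, Gabrb1, Gabrr1, Gabrr2, Gria3, Grin2c, Grik1, Grm3, Grm7 and Grm8. Of these, Gabra2, Gabra4, Gabrb1, Gabrr1, Gabrr2, Grik1 and Grm8 were separated again at p17, together with Gabra3, Gabrg3, Glra2, Glrb and Grin1. Lower calls were made at both ages for 13 genes, at p14 only for Grm3 and Grm7, at p17 only for 9 genes, and at neither age for Gria1, Gria2, Grin2b, Grik3, Grik4, Grik5, Grm2 and Grm4. Without the 7 mice low in Xkr4, which leaves 4, 4, 6 and 5 mice, 10 of the 15 genes were called at p14 and 19 of the 22 at p17, and no gene was added at either age. The calls lost were those of Gabra3, Glrb, Grik1, Grik2 and Grm7 at p14 and of Grik2, Grin2a and Grm5 at p17. Fewer mice also make a call harder to reach, so a lost call alone does not show that these mice carried the difference.

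Among the GABA-A receptor subunits, 6 of 9 were lower at p14 and 9 of 9 at p17, with median log2FC of -0.51 and -0.57. Gabra4, an alpha subunit known from receptors outside the synapse, was the most reduced of the 32 genes at both ages. Its lowest, median and highest values were 504, 561 and 688 normalized reads in nOIR p14 and 145, 178 and 222 in OIR p14 mice. At p17 they were 504, 732 and 790.1 in nOIR and 183, 208 and 297 in OIR mice. At each age the highest OIR mouse therefore stayed well below the lowest control. The log2FC was -1.65 ± 0.14, adjusted p = 4.52e-09 at p14, or 68.2% less RNA, and -1.68 ± 0.13, adjusted p = 8.25e-11 at p17, or 68.7% less.

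Gabrb1, a beta subunit that shares the GABA binding site with an alpha subunit, was next among the GABA-A genes. It measured 369, 499.9 and 586 normalized reads (lowest, median, highest) in nOIR p14 and 184, 225 and 296 in OIR p14 mice. The p17 values were 393, 538 and 621 in nOIR and 151, 265 and 335 in OIR mice, again without overlap. Its log2FC was -1.09 ± 0.17, adjusted p = 0.000109 at p14 and -1.12 ± 0.16, adjusted p = 7.41e-06 at p17.

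Gabra4 and Gabrb1 are neighbours on chromosome 5 and start on opposite strands, 387 bases apart, with 46 exon bases in common. Their reads at those shared bases cannot be assigned, since the library kit does not mark strand, but the shared stretch is 0.756% of the Gabra4 exons and 0.332% of the Gabrb1 exons. Because these neighbours carried the largest GABA-A differences, their RefSeq promoter windows (GRCm38.p6; 250 bases before and 50 after the start) are shown 5′ to 3′, on the minus strand at chr5:71658259-71658558 for Gabra4 and on the plus strand at chr5:71657671-71657970 for the first of 2 Gabrb1 starts. Capitals mark matches on either strand to ACGTG or GCGTG, the core words bound by hypoxia-inducible factors.
Gabra4: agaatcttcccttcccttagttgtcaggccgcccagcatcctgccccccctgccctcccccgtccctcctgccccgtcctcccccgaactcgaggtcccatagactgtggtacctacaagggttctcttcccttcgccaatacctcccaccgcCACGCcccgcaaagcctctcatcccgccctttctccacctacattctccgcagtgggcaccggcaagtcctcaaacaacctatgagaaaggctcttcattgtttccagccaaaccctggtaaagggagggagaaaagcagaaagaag
Gabrb1: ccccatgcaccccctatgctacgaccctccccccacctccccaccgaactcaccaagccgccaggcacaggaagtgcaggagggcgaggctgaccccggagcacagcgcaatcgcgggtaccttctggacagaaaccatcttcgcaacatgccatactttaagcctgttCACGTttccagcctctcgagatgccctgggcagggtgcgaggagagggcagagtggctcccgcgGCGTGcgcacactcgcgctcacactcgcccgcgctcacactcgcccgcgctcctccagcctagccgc

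Promoter windows were found for 24 of the 32 genes, 31 windows in all. ACGTG stood in 6 of these windows and GCGTG in 13, while 19.6% and 32.4% of the 32851 mouse windows of the same length hold these words. The cAMP response element TGACGTCA was in 0 member windows (1.79% of all windows) and TATAAA in 4 (13.6%). The median GC content was 60.7% in the member windows and 52.7% in all windows. A match describes the letters only.

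Gabra2 and Gabra3, alpha subunits of benzodiazepine-sensitive receptors, were lower at both ages. Gabra2 ranged from 699.7 to 1032 normalized reads in nOIR p14 and from 432 to 651 in OIR p14 mice, and from 825 to 1004 and 379.5 to 822 at p17, so that no mice overlapped at either age. The log2FC of Gabra2 was -0.85 ± 0.14, adjusted p = 0.000221 at p14 and -0.65 ± 0.13, adjusted p = 0.000788 at p17. Gabra3 gave -0.51 ± 0.12, adjusted p = 0.00607 and -0.42 ± 0.11, adjusted p = 0.008, and was the GABA-A gene at the class median at p14. Its p14 values overlapped, at 767 to 1147 in nOIR and 566 to 987 in OIR mice, and the p14 call was lost without the 7 mice low in Xkr4 (log2FC -0.29, adjusted p = 0.354).

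The remaining beta and the gamma subunits, which complete the synaptic receptor, were called at p17 only. Gabrb2 measured 1187 ± 216 normalized reads (mean ± SD, n = 6) in nOIR and 806 ± 149 (n = 8) in OIR p17 mice, a log2FC of -0.56 ± 0.14, adjusted p = 0.00694, with -0.31 ± 0.15, adjusted p = 0.311 at p14, where the estimate was -0.060 (adjusted p = 0.937) without the 7 mice low in Xkr4. Gabrg3 measured 564 ± 75.2 and 346 ± 90.5 at p17, with no overlap between the mice (-0.74 ± 0.16, adjusted p = 0.00179), and had an estimate of -0.47 ± 0.18, adjusted p = 0.127 at p14, which passed under 2 of 39 alternatives. Gabrg1, which lies in the same chromosome 5 cluster as Gabra2, Gabra4 and Gabrb1, measured 368 ± 28 in nOIR p14 and 377 ± 79.8 in OIR p14 mice (0.013 ± 0.13, adjusted p = 0.981). At p17 Gabrg1 stood at 443 ± 49.4 in nOIR and 309 ± 49.9 in OIR mice (-0.53 ± 0.12, adjusted p = 0.00288). The cluster neighbours thus had unlike estimates at p14.

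Gabrr1 and Gabrr2 encode the rho subunits of the slowly desensitizing GABA receptors on bipolar cell terminals, and they held the highest levels per kilobase of exon among the 32 genes in every group. Gabrr1 measured 3379, 3619 and 3861 normalized reads (lowest, median, highest) in nOIR p14 and 2515, 2676 and 2996 in OIR p14 mice, then 3554, 3795 and 4154 and 2282, 2809 and 3171 at p17. Gabrr2 measured 2078, 2372 and 2579 in nOIR p14 and 1318, 1606 and 1864 in OIR p14 mice, then 2707, 2964 and 3429 and 1785, 2029 and 2287 at p17. Neither gene overlapped between OIR and nOIR at either age. The log2FC of Gabrr1 was -0.41 ± 0.077, adjusted p = 0.000851 at p14 and -0.46 ± 0.072, adjusted p = 2.18e-05 at p17. For Gabrr2, which lay at the class median at p17, it was -0.56 ± 0.084, adjusted p = 4.3e-05 and -0.57 ± 0.078, adjusted p = 3.57e-06.

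**Figure D2:**
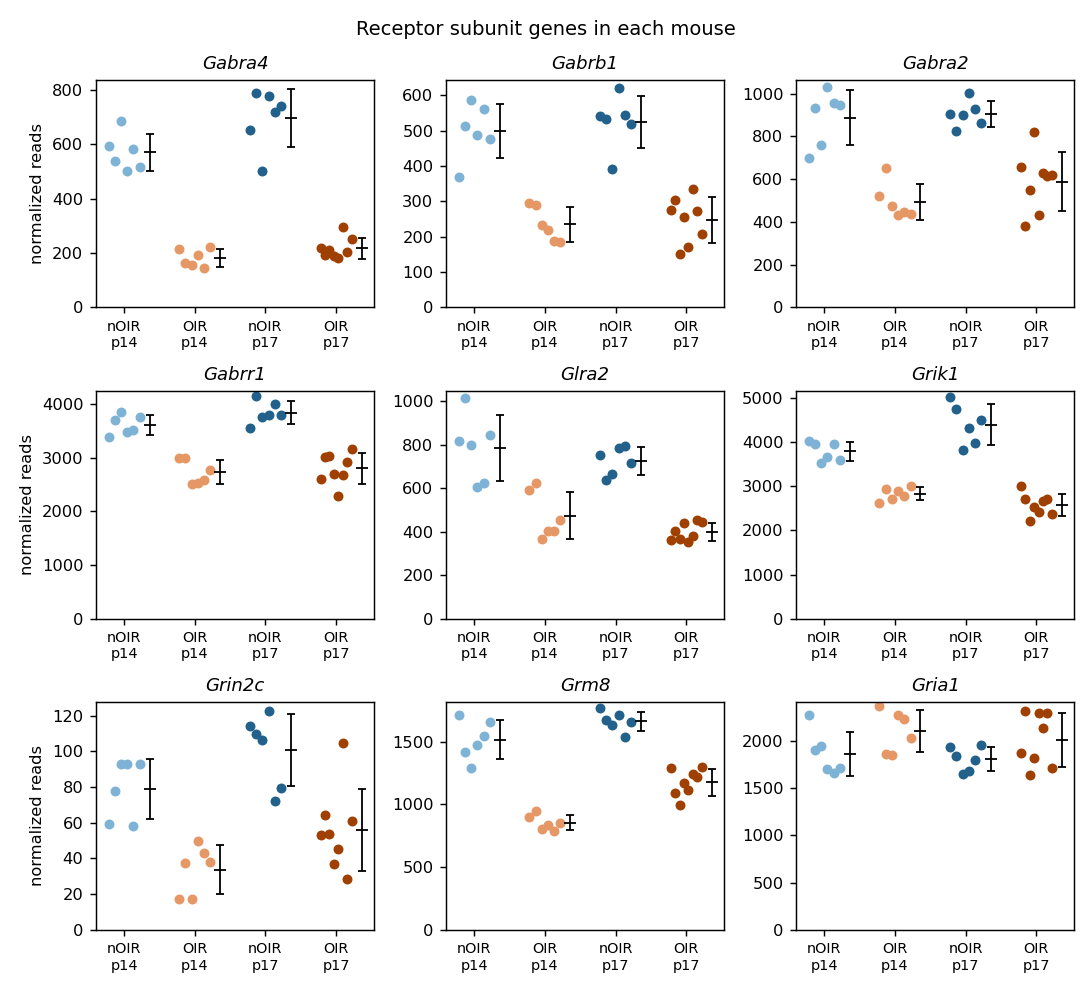
Normalized reads (y axis, linear from 0) of 9 receptor subunit genes in each mouse of the 4 groups (x axis), with the group mean ± SD beside the points. Gabra4, Gabrb1, Gabra2, Gabrr1, Grik1 and Grm8 show no overlap between OIR and nOIR mice at either age, while Gria1 overlaps at both.

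The glycine receptor subunits were lower as a class at p17, where 4 of 4 were called, against 2 of 4 at p14. Their median log2FC was -0.59 at p14 and -0.68 at p17. Glra2, an alpha subunit of amacrine and ganglion cell receptors, measured 606, 809 and 1015 normalized reads (lowest, median, highest) in nOIR p14 and 367, 428 and 626 in OIR p14 mice. At p17 it measured 636, 734 and 796 in nOIR and 351, 391 and 453 in OIR mice, which did not overlap, whereas the p14 mice overlapped narrowly. Its log2FC was -0.73 ± 0.13, adjusted p = 0.000542 at p14 and -0.86 ± 0.12, adjusted p = 7.56e-06 at p17. Glrb, the subunit that anchors the receptor to gephyrin, ranged from 3564 to 4114 in nOIR p17 and from 2256 to 3108 in OIR p17 mice (-0.54 ± 0.082, adjusted p = 1.47e-05). At p14 the Glrb estimate was -0.39 ± 0.088, adjusted p = 0.00465, and this call was lost without the 7 mice low in Xkr4 (log2FC -0.35, adjusted p = 0.0976).

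Glra1 and Glra3, the alpha subunits on either side of the class median, passed the test at p17 only. Glra1, which had the lowest level per kilobase of the 4 in nOIR p17 mice, stood at 149.8 ± 24.6 normalized reads (mean ± SD) in nOIR p17 and 95.5 ± 28.5 in OIR p17 mice, with a log2FC of -0.68 ± 0.20, adjusted p = 0.023, and -0.67 ± 0.22, adjusted p = 0.0675 at p14. The p17 call was lost under 6 of 39 alternatives, among them leaving out any 1 of 3 mice. Of its exon bases, 5.84% are shared with Gm12236 on the opposite strand. Glra3 measured 938 ± 149 and 588 ± 133 at p17 (-0.68 ± 0.15, adjusted p = 0.0015), and its p14 estimate was -0.50 ± 0.16, adjusted p = 0.0588, or -0.26 (adjusted p = 0.597) without the 7 mice low in Xkr4. At p14 Glra1 was called lower under 7 of 39 alternatives (DESeq2 and edgeR among them) and Glra3 under 4. The ratio of Glra1 to Glra2 was 0.208 ± 0.0371 in nOIR p17 and 0.242 ± 0.0828 in OIR p17 mice, a difference not shown by a 2-sided exact permutation test (p = 0.472, adjusted over 8 ratio tests 0.54).

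AMPA receptors carry most fast excitation in the inner retina, and 1 of their 4 subunits was lower at p14 and 2 at p17. Gria3 was called at both ages. It measured 1274, 1564 and 1668 normalized reads (lowest, median, highest) in nOIR p14 and 959.8, 997 and 1245 in OIR p14 mice, and 1273, 1618 and 1719 and 887, 1049 and 1288 at p17. The groups were apart at p14 and overlapped by their extreme mice at p17. Its log2FC was -0.53 ± 0.095, adjusted p = 0.000473 at p14 and -0.53 ± 0.089, adjusted p = 5.55e-05 at p17. Gria4 was lower at p17 (-0.40 ± 0.087, adjusted p = 0.00133), where it measured 3497 ± 396 in nOIR and 2649 ± 354 in OIR mice, and had an estimate of -0.12 ± 0.093, adjusted p = 0.571 at p14.

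Gria2, whose edited form makes AMPA receptors impermeable to calcium, did not pass the test. It measured 6797 ± 835 in nOIR p14 and 6131 ± 448 in OIR p14 mice (-0.14 ± 0.11, adjusted p = 0.582), and 7393 ± 1023 and 6232 ± 1051 at p17 (-0.25 ± 0.10, adjusted p = 0.113). Gria1 had estimates above 0, with 1868 ± 233 and 2107 ± 224 at p14 and 1813 ± 127 and 2012 ± 283 at p17. The 95% confidence interval of its log2FC ran from -0.029 to 0.38 at p14 and from -0.051 to 0.33 at p17, so that a fall of the size seen in Gria3 lay outside both. The class median was -0.13 at p14 and -0.33 at p17.

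Of the NMDA receptor subunits, 1 of 4 was lower at p14 and 3 of 4 at p17. Grin2c, a regulatory subunit with the lowest level per kilobase of the 4 in nOIR p17 mice, measured 58, 85.3 and 93.1 normalized reads (lowest, median, highest) in nOIR p14 and 17.1, 37.7 and 49.7 in OIR p14 mice. At p17 it measured 72.4, 108 and 122 in nOIR and 28.4, 53.4 and 105 in OIR mice. All OIR mice were below the controls at p14, and 1 OIR mouse reached into the control range at p17. The log2FC was -1.29 ± 0.28, adjusted p = 0.00414 at p14 and -0.91 ± 0.27, adjusted p = 0.02 at p17, and the p17 call failed without nOIR p17 mouse 4.

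Grin1, the subunit that every NMDA receptor requires, ranged from 1561 to 1689 in nOIR p17 and from 930.3 to 1497 in OIR p17 mice, without overlap. Its log2FC was -0.35 ± 0.11, adjusted p = 0.0362 at p17 and -0.14 ± 0.12, adjusted p = 0.624 at p14. The p17 call was lost when any 1 of 9 mice was left out, and 13.5% of the Grin1 exon bases are shared with the antisense gene Grin1os, from which reads cannot be told apart here. Grin2a, the subunit that gains on Grin2b as synapses mature, was lower at p17 (-0.50 ± 0.15, adjusted p = 0.0207) and had an estimate of -0.14 ± 0.16, adjusted p = 0.738 at p14. Without nOIR p17 mouse 1 the Grin2a call was lost. Grin2b passed the test at neither age (0.17 ± 0.16, adjusted p = 0.665 at p14 and -0.17 ± 0.15, adjusted p = 0.564 at p17). Grin1 and Grin2a lay on either side of the class median of -0.14 at p14 and -0.42 at p17.

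The ratio of Grin2a to Grin2b was 0.601 ± 0.0797 (mean ± SD) in nOIR p14 and 0.486 ± 0.0908 in OIR p14 mice. At p17 it was 0.761 ± 0.113 in nOIR and 0.603 ± 0.0857 in OIR mice. The ratio was thus lower in OIR at each age and higher at p17 than at p14 in each condition. In 2-sided exact permutation tests the OIR differences gave p = 0.0346 at p14 and p = 0.0193 at p17, and the age differences gave p = 0.0281 in nOIR and p = 0.0386 in OIR mice. After adjustment over the 8 ratio tests each became 0.0773, and the differences did not pass the threshold.

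Of the kainate receptor subunits, Grik1 and Grik2 were lower at both ages and the other 3 passed the test at neither. Grik1, known from the dendrites of OFF bipolar cells, measured 3541, 3821 and 4034 normalized reads (lowest, median, highest) in nOIR p14 and 2634, 2836 and 3019 in OIR p14 mice. The p17 values were 3815, 4414 and 5026 in nOIR and 2209.6, 2607 and 3012 in OIR mice. OIR and control mice were apart at both ages, and more so at p17. The log2FC was -0.42 ± 0.079, adjusted p = 0.00069 at p14 and -0.77 ± 0.074, adjusted p = 5.11e-09 at p17, with a difference between the ages of -0.35 ± 0.11 that did not pass (adjusted p = 0.128). The p14 call was narrowly lost without the 7 mice low in Xkr4 (log2FC -0.40, adjusted p = 0.0502).

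Grik2, a subunit that forms channels by itself, was lower at both ages with overlapping mice (-0.60 ± 0.17, adjusted p = 0.0268 at p14 and -0.50 ± 0.16, adjusted p = 0.0315 at p17). Both calls were lost without the 7 mice low in Xkr4, with log2FC of -0.44 and -0.35, and each was lost when single mice were left out, 7 of them at p14 and 6 at p17. Grik3 and Grik4 had estimates above 0 at both ages, 0.41 ± 0.29, adjusted p = 0.545 and 0.39 ± 0.27, adjusted p = 0.439 for Grik3, and 0.37 ± 0.21, adjusted p = 0.4 and 0.52 ± 0.20, adjusted p = 0.0827 for Grik4. Grik4, a high-affinity subunit that needs partners, measured 102 ± 11.3 in nOIR p17 and 153 ± 44.7 in OIR p17 mice, and without OIR p17 mouse 8 it was called higher (log2FC 0.63, adjusted p = 0.0233). Grik5, also a high-affinity subunit, had estimates of -0.035 ± 0.26, adjusted p = 0.975 and -0.61 ± 0.25, adjusted p = 0.109, the latter being -0.14 (adjusted p = 0.765) without the 7 mice low in Xkr4. It was the kainate gene at the class median of -0.035 at p14, and Grik2 was that gene at the median of -0.50 at p17.

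Of the 6 metabotropic glutamate receptors, 3 were lower at p14 and 2 at p17. Grm8, an autoreceptor of photoreceptor terminals, was the gene with the smallest adjusted p of the glutamate receptors at p14. It measured 1293, 1509.7 and 1711 normalized reads (lowest, median, highest) in nOIR p14 and 785, 844 and 944 in OIR p14 mice, and 1533, 1664 and 1767 and 992, 1193 and 1299 at p17. No OIR mouse reached a control at either age. The log2FC was -0.83 ± 0.082, adjusted p = 8.73e-08 at p14 and -0.50 ± 0.077, adjusted p = 1.65e-05 at p17. The OIR mice themselves differed between the ages, with a log2FC of 0.46 ± 0.077, adjusted p = 0.000215 for p17 against p14, a call that was lost without the 7 mice low in Xkr4 (log2FC 0.35, adjusted p = 0.0911).

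Grm3, a receptor of the second group that is also found in glia, measured 354, 413 and 562 in nOIR p14 and 178, 242 and 275 in OIR p14 mice, which did not overlap (-0.87 ± 0.15, adjusted p = 0.000276). At p17 the values were 248, 303 and 359 and 207, 246 and 314, with overlap (-0.29 ± 0.14, adjusted p = 0.195). The difference between the ages, 0.57 ± 0.20, had an adjusted p of 0.218. Grm7, a presynaptic receptor with low affinity for glutamate, was also called at p14 only (-0.47 ± 0.14, adjusted p = 0.0473, and -0.35 ± 0.13, adjusted p = 0.0891 at p17). The Grm7 call was the least firm of the 15, being lost in 18 of the 26 fits that left out 1 mouse, and at p17 Grm7 was called under 2 of 39 alternatives. Grm5, of the first group, was lower at p17 (-0.49 ± 0.15, adjusted p = 0.0298) with an estimate of -0.12 ± 0.16, adjusted p = 0.806 at p14. The Grm5 call at p17 was lost under 9 of 39 alternatives, among them leaving out any of 5 mice. Grm2 and Grm4 passed at neither age, with estimates of -0.09 ± 0.16, adjusted p = 0.868 and -0.049 ± 0.15, adjusted p = 0.901 for Grm2 and -0.003 ± 0.39, adjusted p = 0.999 and -0.66 ± 0.37, adjusted p = 0.287 for Grm4. Without the 7 mice low in Xkr4 the p17 estimate of Grm4 was -0.035 (adjusted p = 0.97). For Grm2, 9.6% of exon bases are shared with Gm28111 on the opposite strand. Grm5 and Grm7 lay on either side of the class median of -0.29 at p14 and -0.42 at p17.

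Levels were compared between genes per kilobase of exon, with union exon lengths from GENCODE vM21. In nOIR p17 mice Gabrr1 held 1681 ± 91.4 normalized reads per kilobase (mean ± SD), followed by Gabrr2 with 1429 ± 117, Glrb with 837 ± 44.1, Grik1 with 655 ± 68.1 and Gria4 with 555 ± 62.8. The lowest were Grik4 with 17.2 ± 1.89, then Grik3 and Grin2c, whose lowest to highest mice spanned 15.2 to 26.0 and 14.4 to 24.3. The ranges of neighbouring genes in this order overlapped, except between Gabrr2 and Glrb, Glrb and Grik1, and Gria2 and Gria1. Gabra4 ranked 19 of 32 in both nOIR groups and 28 in OIR p14 and 25 in OIR p17 mice, falling from 115 ± 17.6 to 35.9 ± 6.32 per kilobase at p17. Gabrr1, Gabrr2 and Glrb kept ranks 1 to 3 in all 4 groups.

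**Figure D3:**
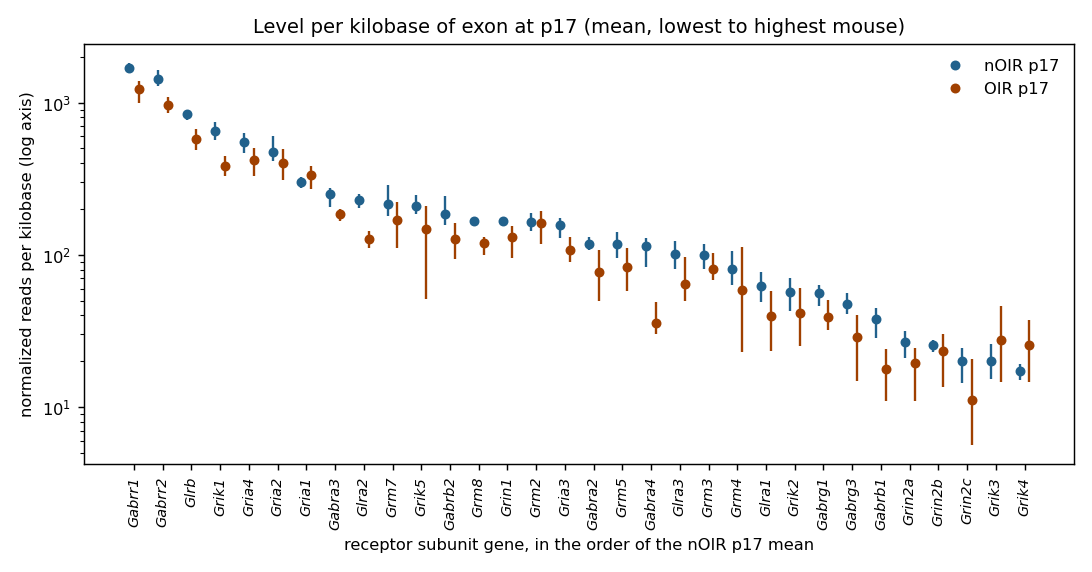
Normalized reads per kilobase of exon (y axis, log axis) of 32 receptor subunit genes (x axis) in nOIR p17 (blue) and OIR p17 (brown) mice, with points at the mean and lines from the lowest to the highest mouse. Gabrr1 leads both groups, and Gabra4 drops from 115 ± 17.6 to 35.9 ± 6.32 per kilobase.

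The OIR effect at p17 was compared with that at p14, and no gene of the 32 passed by limma. The interaction called 0 genes in either direction (background 1.43% higher and 0.147% lower), with 3 lower (Gabrg1, Gria4 and Grik1) and 2 higher (Grm3 and Grm8) at an unadjusted p under 0.05. The edgeR test called 0, and DESeq2 called 1, Grik1. A call at one age only is therefore not shown to differ between the ages.

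Between the control ages no gene of the 32 passed the threshold by limma. For nOIR p17 against nOIR p14, limma called 0 genes (background 0.158% in each direction), with 5 higher and 2 lower at an unadjusted p under 0.05. The 5 were Gabra4, Gabrr2, Grin1, Grik1 and Grm5, and the 2 were Grik4 and Grm3. The edgeR test called 0, and DESeq2 called 1, Gabrr2, whose log2FC was 0.35 ± 0.084, adjusted p = 0.0704 by limma. Within OIR mice, 2 genes were higher at p17 than at p14 (background 4.11%) and 0 were lower (1.81%, with 4 at an unadjusted p under 0.05 and 0 by edgeR or DESeq2). These were Grm8, described above, and Gabrr2 with 0.35 ± 0.078, adjusted p = 0.00556. Neither was called without the 7 mice low in Xkr4, where the adjusted p was 0.0911 for Grm8 and 0.0535 for Gabrr2. All p17 mice lay above all p14 mice for Gabrr2 and Grin1 in nOIR retinas (background 0.814%) and for Grm8 in OIR retinas (1.41%), and below for 0 genes in nOIR (0.674%) and 0 in OIR retinas (0.387%). The comparisons by age and by condition share mice.

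Other receptor subunits of the same families were counted against the same background of 2.91% lower at p14 and 5.12% at p17. Of 20 such genes, 18 were tested, and 3 were lower at p14 and 8 at p17, with 0 higher at either age (by limma, 1 at p14 and 0 at p17 at an unadjusted p under 0.05). Their median log2FC was -0.23 and -0.48. Grin3a, an NMDA receptor subunit that lessens calcium entry, was lower at p14 (-0.69 ± 0.13, adjusted p = 0.0007), as was Grm6, the receptor of ON bipolar dendrites (-0.56 ± 0.15, adjusted p = 0.0237). At p17 Glra4, a glycine receptor alpha subunit, was lower (-0.91 ± 0.21, adjusted p = 0.00274), as was Gabrr3, a further rho subunit (-0.70 ± 0.13, adjusted p = 0.000323).

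Auxiliary and scaffold proteins bring these receptors to the membrane and hold them at the synapse. Of 32 such genes, 2 were lower at p14 (background 2.91%) and 11 were lower at p17 (background 5.12%). By limma 0 were higher at either age, also at an unadjusted p under 0.05. At p14 these were Dlg3 (-0.42 ± 0.12, adjusted p = 0.0332) and Dlg2 (-0.39 ± 0.12, adjusted p = 0.0431), scaffolds of the PSD-95 family. The 3 largest at p17 were Grip2 (-0.92 ± 0.27, adjusted p = 0.0203), a scaffold that binds AMPA receptors, Neto2 (-0.81 ± 0.18, adjusted p = 0.00216), an auxiliary subunit of kainate receptors, and Shisa9 (-0.78 ± 0.18, adjusted p = 0.0034), an auxiliary AMPA receptor subunit. The median log2FC of the list was -0.27 at p14 and -0.38 at p17.

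Among 25 genes of transmitter transport, synthesis and breakdown, 6 were lower at p14 (background 2.91%) and 9 at p17 (5.12%). At p17, 2 were higher (background 7.39%), which is near the share of all genes tested. Glul, the Müller cell enzyme that turns glutamate into glutamine, led at p14 (-0.98 ± 0.15, adjusted p = 8.21e-05), followed by Slc17a8, a vesicular glutamate transporter (-0.78 ± 0.19, adjusted p = 0.00935), and Slc6a9, the glycine transporter of amacrine cells (-0.54 ± 0.099, adjusted p = 0.000666). Slc6a9 led at p17 (-0.79 ± 0.093, adjusted p = 1.99e-07), with Slc17a8 (-0.79 ± 0.18, adjusted p = 0.0021) and Gad1, which makes GABA (-0.62 ± 0.071, adjusted p = 1.72e-07). The 2 higher genes were Gls2, a glutaminase (1.00 ± 0.19, adjusted p = 0.000366), and Shmt1, which interconverts serine and glycine (0.97 ± 0.22, adjusted p = 0.00191). The median log2FC of this list was -0.16 at p14 and -0.38 at p17.

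**Figure D4:**
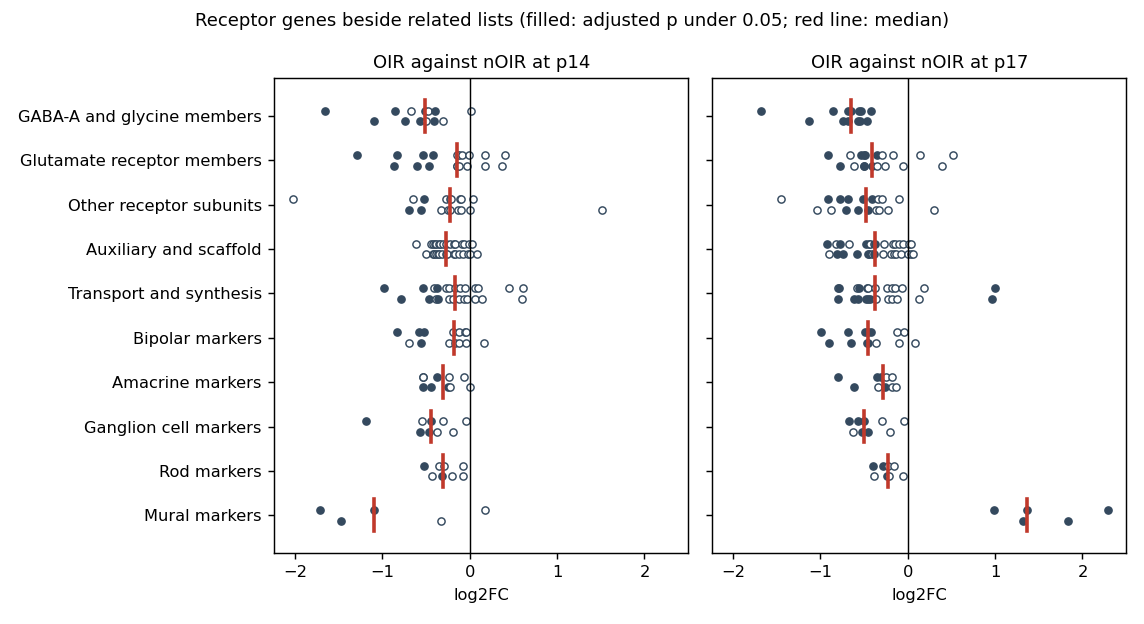
log2FC of OIR against nOIR (x axis) at p14 and p17 for the genes of 10 lists (y axis), filled where the adjusted p was under 0.05, with the median of each list in red. Receptor subunits, auxiliary proteins and markers of bipolar, amacrine and ganglion cells have medians below 0 at both ages, while 4 of the 5 mural cell markers, all but Cspg4, lie below 0 at p14 and above 0 at p17.

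Markers of the inner retinal neurons were counted beside the receptor genes, and in each class only some of them were called. Of all genes tested, 2.91% were lower at p14 and 5.12% at p17. Of 10 amacrine cell markers, 5 were lower at p14 and 5 at p17, and their summed level ran from 41873.5 to 52427 normalized reads in nOIR p14 and from 34440.0 to 38246 in OIR p14 mice. At p17 it ran from 49600.5 to 51766 in nOIR and from 33766 to 45961 in OIR mice, so the sums did not overlap at either age. Of 9 ganglion cell markers, 4 were lower at p14 and 5 at p17, with sums of 40966.5 to 45041 in nOIR p17 and 26484 to 41417 in OIR p17 mice. The 8 ON bipolar markers, Grm6 among them, had 1 lower gene at p14 and 5 at p17, with p17 sums of 33576 to 38554 in nOIR and 21562 to 30454 in OIR mice. The 6 OFF bipolar markers had 3 lower genes at p14 and 4 at p17, with p17 sums of 4663 to 5078 and 3675 to 4205. Horizontal cell markers had 1 lower gene of 5 at each age, Calb1, which held most of their summed reads (6519 ± 219.9 normalized reads in nOIR p17 and 3890.1 ± 597 in OIR p17 mice). The other 4, Lhx1, Onecut1, Onecut2 and Onecut3, were called at neither age and had p17 log2FC from -0.33 to 0.19. The amacrine markers Gad1, Gad2, Slc32a1 and Slc6a9, the ganglion cell marker Slc17a6, the ON bipolar marker Grm6 and the Müller cell markers Glul and Slc1a3 stand also in the lists of the receptor pathway.

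Markers of rods, cones, glia, vessels and blood were counted in the same way. Of all genes tested, 2.91% were lower and 3.18% higher at p14, and 5.12% were lower and 7.39% higher at p17. Of 8 rod markers, 2 were lower at p14 and 3 at p17, and the sums of OIR and nOIR mice overlapped at both ages. The sums of 7 cone markers overlapped at both ages too. Of these, Arr3 was lower at p14 (-0.89 ± 0.16, adjusted p = 0.000379) but not called at p17 (-0.043 ± 0.15, adjusted p = 0.912). The other cone markers were called at neither age. Of 7 Müller cell markers, 4 were lower and 1, Vim, was higher at p14, and 5 were lower and 1, Vim, higher at p17. Astrocyte markers had 2 of 4 higher at p14 and 3 of 4 at p17, led by Gfap. Mural cell markers had 3 of 5 lower at p14 and 5 of 5 higher at p17, endothelial markers had 1 lower and 1 higher at p14 and 4 of 5 higher at p17, and 4 of 6 microglial markers were higher at p17 only. The 5 hemoglobin and heme genes were higher at p17, with sums of 1227 to 16979.6 in OIR and 195 to 1191 in nOIR mice, and 0 of 5 lens markers were called at either age. The part of any of these cell types in the receptor results was not tested.

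Spread within groups was widest for Grm4, with a mean SD of 0.70 on the log2 scale over the 4 groups, then Grik3 (0.53), Grin2c (0.46) and Grik5 (0.40). In the 7 mice low in Xkr4, Grm4 lay below every other mouse of the group in nOIR p14 (149.6 to 179.6 against 349.5 to 509.7) and OIR p17 (137 to 157 against 366 to 677), but not in OIR p14 (216 to 246 against 125 to 595). Grik5 was below the other mice in OIR p17 only, where the 3 mice low in Xkr4 held 264 to 633 normalized reads and the other 5 held 908 to 1079.7. In OIR p14, both mice low in Xkr4 lay below the other 4 mice for Gabra3, Gabra4, Gabrb2, Glra2, Glra3, Grm7 and Grm8 and above them for Glra1. In nOIR p14, the 2 such mice lay below the others for Glra2, Gria1 and Grik3 as well and above them for Gabra2 and Gabrr2, and in OIR p17 the 3 lay above the others for Grin1. Of these genes, Gabra3 and Grm7 lost their p14 call without the 7 mice. With so few mice, such an order also arises by chance in some genes, and its share over all genes tested was not counted. The split is therefore not shown to be particular to these genes. Its part in the receptor results was not tested beyond leaving out the mice.

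**Figure D5:**
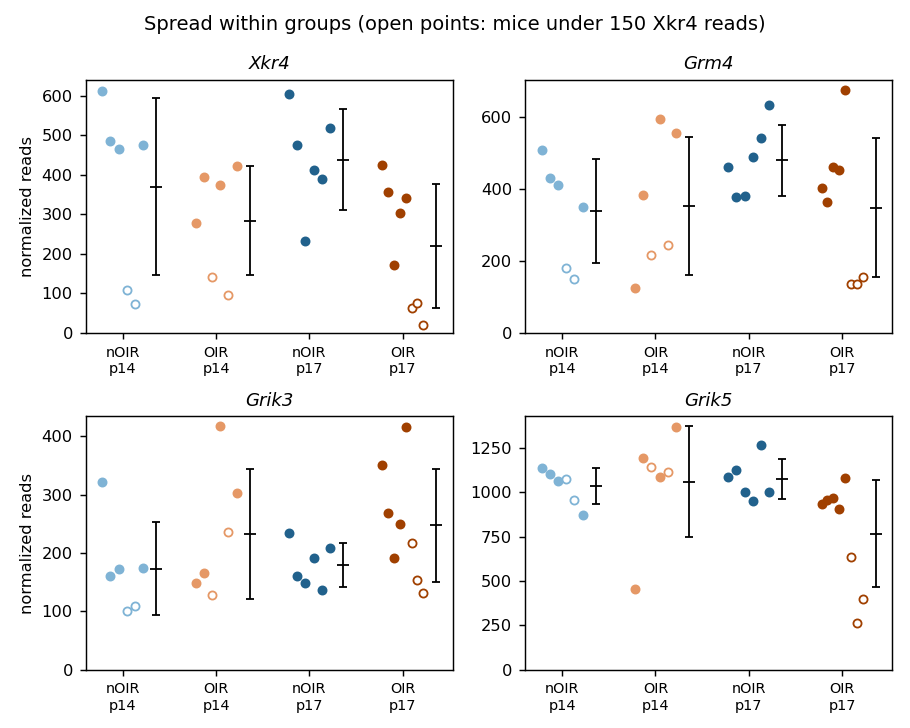
Normalized reads (y axis, linear from 0) of Xkr4 and of 3 receptor subunit genes with wide spread in each mouse of the 4 groups (x axis), with the group mean ± SD beside the points and open points for the 7 mice under 150 normalized reads of Xkr4. Open points lie lowest for Grm4 in nOIR p14 and OIR p17 mice, and 3 of them lie lowest for Grik5 in OIR p17 mice.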

How the data were processed

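Bulk retinal RNA of 27 mice was sequenced, and 26 mice were compared; nOIR p14 mouse 4 was left out as in the study. The authors made poly(A) cDNA libraries with a kit that does not mark strand, aligned single reads with STAR 2.7.8a, counted them per gene with featureCounts 2.0.1 and normalized them with DESeq2 1.34. The deposited table holds a signal per gene and mouse, namely gene counts divided by a DESeq2 size factor; whole reads were recovered for 100% of values (tolerance 0.1 read). The deposited log2 fold changes and adjusted p-values of the authors' own comparisons were not used.

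Groups came from the labels. limma 3.58.1 (R 4.3.3) was fitted with a mean-dependent trend to log2(normalized reads + 1) of the 27137 genes with a mean of at least 1, with all 4 groups in 1 fit and Benjamini-Hochberg adjustment over all genes; calls had an adjusted p under 0.05. Count tests on recovered reads with edgeR 4.0.16 and DESeq2 1.42.0, other filters, pseudocounts, scalings, covariates and left-out mice were tried as alternatives. Scripts were tested on simulated data. All 32 members are named, with up to 3 called genes of largest change per direction in each further list of the pathway, except 1 gene that is not reported here. The members and lists were chosen with earlier results of these data known. Exon lengths came from GENCODE vM21 (GRCm38) and promoter windows from RefSeq, with coordinates in that build, which is not the authors'. Ratios were compared by exact permutation in scipy 1.17.1.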

Additional observations from a re-analysis of the deposited data

Results flagged for a closer look

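In 5 of 128 group-by-gene sets, 1 mouse stood apart from the rest of its group by Dixon's criterion, against 6.4 that chance alone gives at 1 in 20. Gabra3 was 767.1 normalized reads in nOIR p14 mouse 1 and 995.6 to 1147 in the others. Gabrg3 was 493.9 in OIR p14 mouse 2 and 332.8 to 382.2 in the others. Glra3 was 892.9 in OIR p17 mouse 1, the mouse with the fewest reads, and 461.5 to 627.4 in the others. Grin1 was 1013 in nOIR p14 mouse 3 and 1296 to 1405 in the others. Grik5 was 457.6 in OIR p14 mouse 1 and 1086 to 1369.7 in the others.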

How the results depend on the processing

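Under 39 alternatives, 26 of which left out 1 mouse, the lower calls ranged from 10 to 17 genes at p14 and from 16 to 23 at p17. Of the lower calls, 10 of 15 at p14 and 16 of 22 at p17 held under every alternative. The exceptions were Gabra3, Glrb, Grik1, Grik2 and Grm7 at p14 and Glra1, Grik2, Grin1, Grin2a, Grin2c and Grm5 at p17. Leaving out single mice gave 13 to 17 lower genes at p14, 18 to 23 at p17 and 0 to 1 higher at p17. It gave 0 to 1 higher genes for the nOIR ages, 0 to 1 lower for the OIR ages (Grik5, without OIR p14 mouse 1) and 2 to 2 higher. Without the 7 mice low in Xkr4, an alternative chosen after seeing the data, 10, 19 and, for the OIR ages, 0 genes were called. DESeq2 called 1 gene higher at p17 (Grik4), 1 lower in the interaction (Grik1) and 1 higher for the nOIR ages (Gabrr2). Gabrr2 was also the 1 gene called for the nOIR ages with a mean of at least 10, with nOIR p14 mouse 4 and with only the groups compared.

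Mouse numbers were not shown to pair the samples, and the main fit took the mice as unpaired. Correlations of same-numbered pairs ran from -0.23 to 0.33, and 7 of 34 were over 0.1. The median correlation was 0.014 for the same number and -0.0032 for other numbers. Of 68 lookups, 18 matched best within their own number, and the count that chance alone would give was not worked out. With the replicate block, 15 genes were lower at p14 (all 15 shared), 19 at p17 (18 shared), and 1, Grik4, was higher at p17 (log2FC 0.70, adjusted p = 0.0128).

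Reversals were seen only in estimates that had not passed the test, and the cause was not tested. At p14, Gabrg1 was -0.0055 with nOIR p14 mouse 4 and -0.077 to 0.091 without single mice. Grik5 was 0.00896 at the same total for every mouse, 0.042 by edgeR, 0.036 by DESeq2 and -0.12 to 0.19 without single mice. Grm4 was 0.041 at the same total, 0.11 with lens markers as a covariate, 0.075 by edgeR, 0.062 by DESeq2 and -0.21 to 0.25 without single mice. Grm5 was 0.0095 without the 7 mice low in Xkr4, and Grm2 was -0.17 to 0.074 without single mice. At p17, Grm2 was 0.018 at the same total and -0.092 to 0.013 without single mice. Differences within the spread of 6 to 8 mice were not detectable, above all for Grm4, Grik3, Grin2c and Grik5.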

Other observations

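nOIR p14 mouse 4, which the study excluded for contamination by the lens genes Cryaa and Cryba1, entered no comparison. It lay above all 6 other nOIR p14 mice in 14 of the 32 genes, within their range in 18 and below it in 0. The share of all genes in which it lay above the others was not counted. These counts are therefore not shown to be particular to the receptor genes. Gabrb2 measured 1788 normalized reads in this mouse against 912 to 1299 in the others, Grm5 1706 against 696 to 1051, and Grik1 4813 against 3541 to 4034.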
